A study of Mus musculus with 2 samples.

Results

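The cells described here are natural killer (NK) cells outside the cell cycle, taken from the CD45-selected cells of cisplatin-treated mouse tumours. They were chosen by their unique molecular identifier (UMI) counts, each UMI standing for 1 captured RNA molecule. A barcode was selected on having at least 1 UMI of Ncr1, at least 3 of Prf1, Gzma and Klra8 together, at most 1 of the CD3 genes Cd3d, Cd3e and Cd3g, fewer than 2 of the cell cycle genes Mki67 and Top2a, fewer than 20 of the complement genes C1qa, C1qb and C1qc, and at most 10% mitochondrial UMIs. Of 12514 barcodes, 580 met the rule, 87 of 5320 in library 1 and 493 of 7194 in library 2. The values of those genes chose the cells, so their levels are given as a description only.

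The labels name 2 groups with 1 library each. In the first, C57BL/6 mice received MTC-Q1 WT cells under the skin, a mouse oral cancer line without the deletion. In the second they received MTC-Q1 miR-21 KO cells, so the knockout of this microRNA was in the injected tumour cells and not in the NK cells of the host. The tumours of both groups grew for 2 weeks, both groups were given cisplatin at 5 mg/kg, and cells were taken 72 hours later by dissociation, removal of dead cells and selection on CD45 beads for 10x Genomics 3′ droplet sequencing. No group without cisplatin is analysed here. The sources used here do not give the number of mice behind each library, their age and sex, or whether the knockout line is 1 clone. The matrix marks its libraries only by the barcode endings 1 and 2, which match no label, so the libraries are set side by side as library 1 and library 2 and no direction between WT and miR-21 KO is given. With 1 library on each side there is no test of any difference, and the intervals given are at 95% and hold counting error alone.

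NK cells are innate lymphocytes that kill infected or transformed cells without a rearranged antigen receptor. They read activating and inhibitory receptors on their surface (the Ly49 and NKG2 families in mice, and NKp46, the product of Ncr1), and kill by releasing perforin and granzymes, the proteases of their granules. They also secrete interferon gamma and the chemokines CCL3, CCL4, CCL5 and XCL1, and depend on interleukin 15 for survival. Mouse NK cells mature along a path marked by loss of CD27 and gain of CD11b (Itgam), and those in tissues and tumours often carry residency genes that they share with the other group 1 innate lymphoid cells.

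In library 1, 12 members held exactly 1 Ncr1 UMI, and 9 barcodes with none met every other limit. In library 2 these numbers were 98 and 79. At the lower limit of the cytotoxic sum, 6 and 12 members held 3 UMIs, and 1 and 13 barcodes stayed outside with 2. Exactly 1 CD3 UMI was held by 11 members of library 1 and 85 of library 2, while 2 and 11 barcodes were outside with 2. Exactly 1 Mki67 or Top2a UMI was held by 14 and 138 members, and 9 and 51 barcodes were outside with 2. The complement limit kept out 1 barcode in library 1 and 25 in library 2. The members made up 1.66% (1.33 to 2.04) of the 5241 barcodes within the mitochondrial limit in library 1 and 6.95% (6.36 to 7.56) of 7098 in library 2. Those shares follow CD45 selection and cell calling, so they are not densities in the tumour. Of all NK cells (the same rule without the limit on Mki67 and Top2a, 118 in library 1 and 828 in library 2), 73.7% (64.8 to 81.4) and 59.5% (56.1 to 62.9) were outside the cycle.

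The libraries differed in depth, in mitochondrial share and in the RNA of Gm42418 and Xist. Members held a median of 10786 UMIs in library 1 (4167 to 38401) and 14192 in library 2 (4956 to 79462), and in sum 1049429 and 7326335 UMIs. Their median mitochondrial share was 2.80% and 2.22%. Gm42418, a locus that picks up ribosomal RNA, stood at 24189 and 5539 CPM (UMIs of a gene per 1000000 UMIs of all genes, summed over the cells of a pool). Xist, the noncoding RNA of the inactive X chromosome, had 880 UMIs in 86 of the 87 members of library 1 and 1 UMI in the 493 members of library 2, while the Y-linked genes Ddx3y, Eif2s3y, Kdm5d and Uty had 0 UMIs in the members of both. Macrophages were taken as barcodes with at least 20 UMIs of the complement genes, no Ncr1 or CD3 UMI and at most 10% mitochondrial UMIs. This rule keeps some barcodes with NK or T cell RNA out of that pool. The macrophages of library 2 also held 0 UMIs of Xist and of those 4 Y-linked genes, in 1625 cells. Each of these differences goes with the library, so their part in any library difference below cannot be told apart from the tumour type. Of the barcode sequences, 8 occurred in both libraries and none of them was a member.

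Markers of NK cells that the rule did not use were present in both libraries. Klrb1c, which encodes NK1.1, stood at 376 (340.2 to 415) CPM in library 1 and 251 (239 to 262) in library 2. The adaptors Tyrobp (DAP12) and Fcer1g, which couple activating receptors to kinases, stood at 2218 and 2400.3 CPM in library 1 and at 2719 and 2880.0 in library 2. They are no marker of NK cells alone, since macrophages held 1663 and 2628 CPM of Tyrobp and 2922 and 3956 of Fcer1g. Klre1, an NK receptor chain, stood at 655 and 482 CPM against 0.710 and 2.90 in macrophages. Itga2 (CD49b), a classical marker of conventional NK cells, was low, at 29.5 and 8.19 CPM, and was seen in 16.1% and 3.65% of thinned members (26.4% and 10.5% without thinning). Eomes, the transcription factor that separates conventional NK cells from other group 1 innate lymphoid cells, stood at 191 and 99.8 CPM, and Tbx21 (T-bet) at 105 and 72.2. After every cell was thinned to 4000 UMIs, Klrb1c was seen in 72.4% of members in library 1 and 62.7% in library 2, and in 0.318% and 0.738% of macrophages, whose median depth was 16118.5 and 16400 UMIs. Without thinning, 92.0% and 91.1% of members held it.

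Markers of other lineages were low or absent, with the exceptions that follow. Cd5 had no UMI in either library, which allows up to 2.86 and 0.409 CPM (3 counts of the pool), Cd8a stood at 0 and 0.682 CPM, and Trac (T cell receptor alpha) at 9.53 and 11.2. Trbc1 and Trbc2, constant regions of the beta chain that NK cells are known to transcribe without a rearranged gene, stood at 358 and 225 CPM in library 1 and at 431 and 254 in library 2. These are near-identical copies between which the authors' counting could split reads. Markers of group 2 and 3 innate lymphoid cells summed to 0.953 and 0.136 CPM over 6 genes. The 8 markers of the other group 1 innate lymphoid cells summed to 220.1 and 193 CPM, and at least 1 was seen in 43.7% and 43.8% of thinned members. Itga1 (CD49a) led at 99.1 and 107 CPM, then Tnfsf10 (TRAIL) at 58.1 and 38.6, with 18.1 and 13.2 in macrophages. Tmem176b stood at 25.7 and 24.2 and Tmem176a at 16.2 and 16.4, and macrophages held 349.8 and 250.1 of the first and 233 and 169 of the second. Cxcr6 stood at 9.53 and 1.91, Il7r at 10.5 and 2.32, Zfp683 (Hobit) at 0.953 and 1.36 and Cd200r1 at 0 and 1.09. Neutrophil markers summed to 0 and 0.273 CPM and epithelial markers to 4.76 and 7.23.

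**Figure D1:**
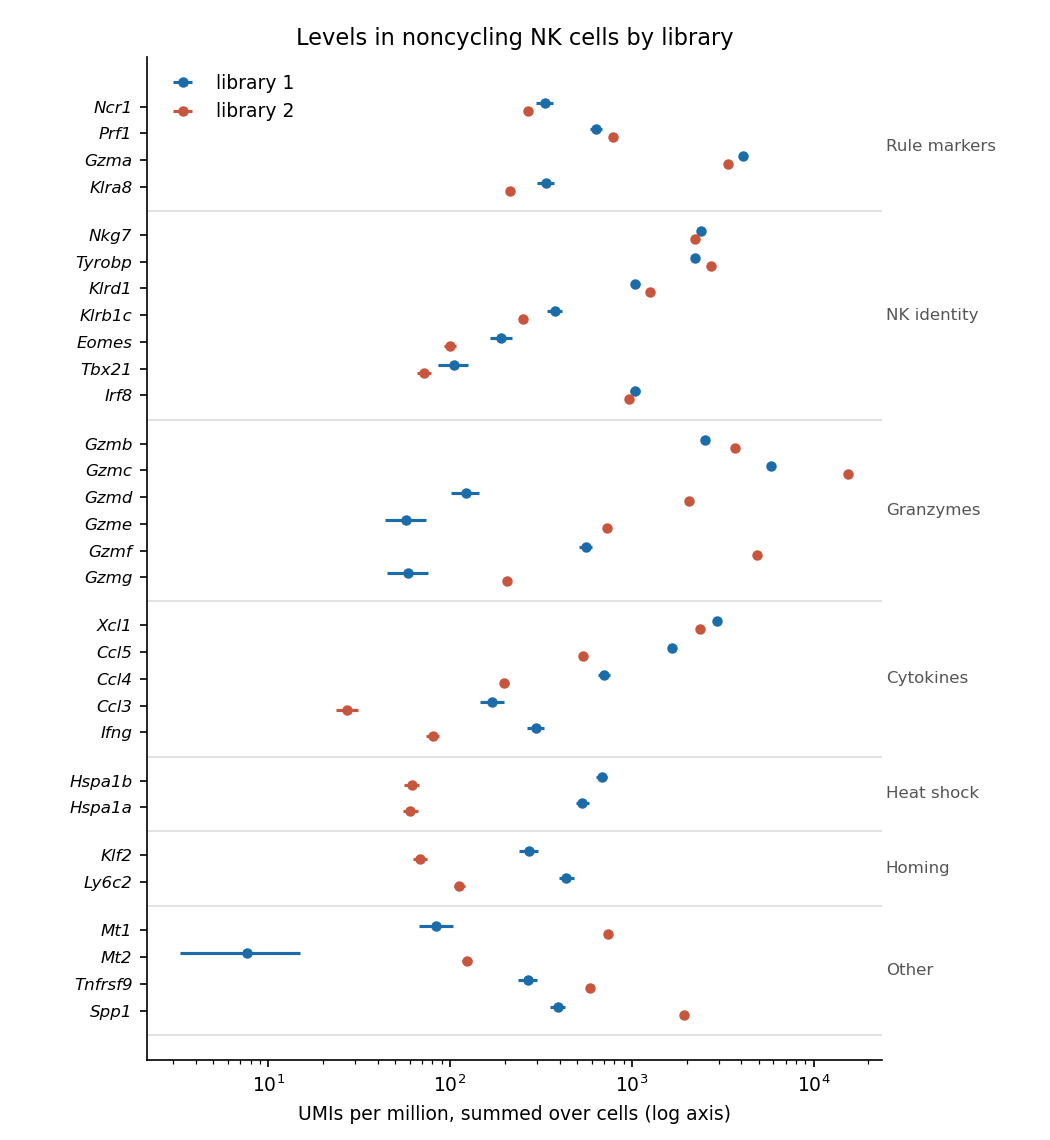
Levels of 30 genes in noncycling NK cells of library 1 (blue) and library 2 (red), as CPM, UMIs summed over cells on a log axis, with bars for the exact Poisson interval (95%, counting error only; where no bar shows it is smaller than the point). Rule and identity genes lie close together in the 2 libraries, granzymes C to G lie to the right in library 2, and Ccl3, Ccl4, Ccl5, Ifng, Hspa1a and Hspa1b lie to the right in library 1.

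Granzymes C to G were uneven both between cells and between libraries. They form a tight cluster on mouse chromosome 14 and encode serine proteases of the granule whose substrates are less well known than those of granzymes A and B. The stretch just before the start of each gene is shown because these genes moved together while the counting could confuse their near-identical transcripts. Each stretch below is 60 bases long (RefSeq, GRCm38.p6, minus strand, 5′ to 3′), and the capitals mark a run of 20 bases that a search found in all 5 promoters.
Gzmc: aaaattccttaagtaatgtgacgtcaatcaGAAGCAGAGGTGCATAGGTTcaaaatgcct
Gzmd: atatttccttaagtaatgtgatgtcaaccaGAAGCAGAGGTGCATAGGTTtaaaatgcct
Gzme: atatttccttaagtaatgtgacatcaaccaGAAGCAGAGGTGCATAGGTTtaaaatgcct
Gzmf: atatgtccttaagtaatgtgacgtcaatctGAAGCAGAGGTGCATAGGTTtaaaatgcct
Gzmg: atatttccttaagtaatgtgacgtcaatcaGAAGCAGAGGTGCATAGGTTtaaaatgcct
They lie at chr14:56234673-56234732 (Gzmc), chr14:56132613-56132672 (Gzmd), chr14:56120646-56120705 (Gzme), chr14:56211448-56211507 (Gzmf) and chr14:56159615-56159674 (Gzmg), and end 16, 20, 21, 41 and 36 bases before the start of their gene. Any 2 of them shared 55 to 58 of 60 bases. The capital run was found on either strand in 5 of 32851 promoter windows, those of these 5 genes. Each window searched was the 250 bases before the start. The motif TGACGTCA, which reads the same on both strands, was found in the windows of Gzmc, Gzmf and Gzmg and in 508 of 32851 windows, 1.55%. A match is a description of the letters and not a site of binding.

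Gzmc, the most abundant of the 5, stood at 5848 (5703 to 5996) CPM in library 1 and 15462 (15372 to 15552) in library 2, a log2 ratio of library 1 over library 2 of -1.40 (-1.44 to -1.37). Gzmd stood at 122 and 2068 CPM (log2 ratio -4.08, interval -4.35 to -3.83). Gzme stood at 57.2 and 725 CPM (log2 ratio -3.67, interval -4.06 to -3.30). All of these granzymes were thus higher in library 2, by far more than the counting error. Gzmf stood at 558 and 4905 CPM (log2 ratio -3.13, interval -3.26 to -3.02), and Gzmg at 59.1 and 206 (log2 ratio -1.80, interval -2.19 to -1.43). Few cells carried the rarer ones: Gzmd, Gzme, Gzmf and Gzmg had a UMI in 10, 8, 9 and 3 of the 87 cells of library 1 and in 243, 203, 178 and 67 of the 493 of library 2, without thinning. In library 1, 1 cell held 41.4% of the Gzmd UMIs, 45.0% of Gzme, 51.7% of Gzmf and 87.1% of Gzmg. With the top cell of each gene left out in each library, the log2 ratios of Gzmc to Gzmg were -1.53, -4.75, -4.44, -4.06 and -4.34. The macrophages of the same libraries held 5.86 and 41.5 CPM of Gzmc and at most 13.7 of the other 4.

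The granzymes best known for killing differed less. Gzmb, which cleaves caspases in the target cell, stood at 2509 and 3696 CPM (log2 ratio -0.56, interval -0.62 to -0.50), and 1 cell held 20.1% of its UMIs in library 1. Gzma and Prf1 (perforin), both part of the rule, stood at 4103 and 635 CPM in library 1 and at 3375 and 784 in library 2. A gene is called different here where the summed levels differ at least 2-fold, the interval of the ratio excludes 1.5-fold, and the pools hold at least 100 UMIs of it. Among 17 compared genes of the cytotoxic granule, Gzmc to Gzmg were called higher in library 2 and none in library 1, with a median log2 ratio of -0.25. Over all 5912 genes compared between the libraries, 187 (3.16%) were called higher in library 1 and 91 (1.54%) higher in library 2, and the median log2 ratio was 0.08. Srgn (serglycin, the proteoglycan that packs granzymes), Ctsw and Cst7 differed little, with log2 ratios of -0.05, 0.08 and 0.10.

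Cell by cell, granzymes C to G ranged widely. After thinning to 4000 UMIs per cell, members of library 1 held from 0 to 215 of them with a median of 2, and members of library 2 from 0 to 612 with a median of 61. None was seen in 35 of 87 members of library 1, 40.2% (29.9 to 51.3), and in 55 of 493 members of library 2, 11.2% (8.52 to 14.3). At least 10 were seen in 28 members of library 1, 32.2% (22.6 to 43.1), and in 364 of library 2, 73.8% (69.7 to 77.7). Both kinds of cell were thus present in both libraries, in different proportions. Among 1518 genes with a mean of at least 0.25 UMIs per thinned cell, ranked by the lower of the 2 libraries, Gzmc had the highest variance over its mean, 57.2 and 49.5. The median over those genes was 1.13 and 1.09. Gzmf followed with 45.5 and 134, then Gzma with 45.0 and 34.0, which is part of the rule, Ccl5 with 36.2 and 32.6 and the nuclear RNA Malat1 with 33.4 and 23.6.

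**Figure D2:**
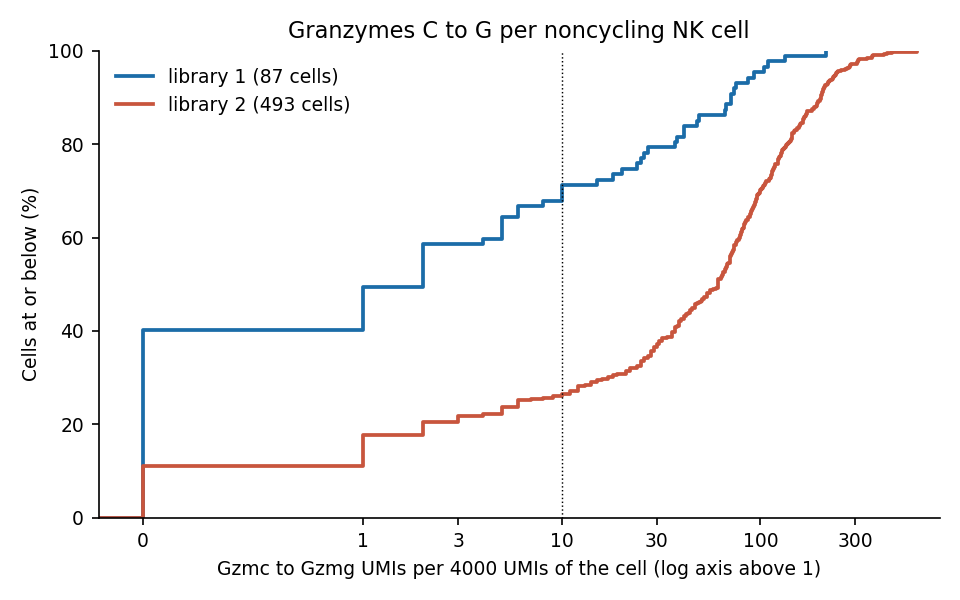
Cumulative share of noncycling NK cells (y axis, percent) at or below a number of Gzmc to Gzmg UMIs per 4000 UMIs of the cell (x axis, linear to 1 and log above), for the 87 cells of library 1 (blue) and the 493 of library 2 (red), with a dotted line at 10. The blue line starts at 40.2% at 0 UMIs and the red at 11.2%, and the medians are 2 and 61.

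Cells without granzymes C to G differed from cells rich in them in the same direction in both libraries for several genes. This split by a measured value was chosen after its values were seen and carries no test. In library 1, 924 genes were compared, of which 17 were called higher in the granzyme-rich cells and 24 lower, 1.84% and 2.60%. In library 2, 5063 were compared, of which 85 were higher and 150 lower, 1.68% and 2.96%. Tnfrsf9 (4-1BB, a costimulatory receptor of activated lymphocytes) stood at 352 CPM in cells with 10 or more and 94.8 in cells with none in library 1, and at 665 and 211 in library 2. Itga1, the collagen-binding integrin CD49a, stood at 149 against 57.6 CPM and at 124 against 14.1. The lipid phosphatase Inpp4b stood at 132 against 37.2 and at 101 against 12.3. These genes were thus higher in the granzyme-rich cells, as were Thy1 (538 against 267, and 380.2 against 141) and Gzmb (3586 against 1554, and 4046 against 2144). In library 1, however, Itga1 and Inpp4b held fewer than 100 UMIs in the pools, too few to be compared. In library 2 the cells with none held few UMIs of either. Spp1 (osteopontin) stood at 504 against 156 CPM in library 1 and at 2355 against 94.9 in library 2.

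Other genes were higher in the cells without granzymes C to G. Of the cytokines and chemokines compared, 3 of 7 were called higher in them in library 1 and 4 of 10 in library 2, where 1 was called the other way. Of the immediate early genes these counts were 2 of 16 and 11 of 19. Of the mature circulating list, 1 of 2 was called higher in them in library 1 and 1 lower, and 3 of 5 higher in library 2. Of the residency list, none of 2 was called in library 1 and 5 of 11 were lower in them in library 2. Gzma is part of the rule that chose the cells, so its values are a description only. In library 1 it stood at 6419 CPM in cells with none and 2854 in cells with 10 or more. In library 2 these values were 6112 and 2816. Klf2, a transcription factor that keeps lymphocytes circulating, stood at 372 against 115 and at 258 against 35.0. Ccl5 stood at 3775 against 613 CPM and at 1368 against 100.2, Ccl4 at 1618 against 205 and at 561 against 159, and Ccl3 at 393 against 36.3 and at 153 against 12.4. Eomes leaned the same way, at 281 against 117 and at 153 against 90.2.

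Some genes took opposite directions in the libraries across the same split. Hspa1a stood at 887 CPM in cells with none and 299 in cells with 10 or more in library 1, but at 15.8 and 60.7 in library 2. Ly6c2 was lower in the cells with none in library 1, 305 against 749, and higher in library 2, 174 against 115. Among all members of library 1, 1 cell held 18.9% of the Hspa1a UMIs and 1 cell 17.2% of the Ly6c2 UMIs. The cells with none in library 2 held few Hspa1a UMIs. The cells with none were also shallower, with a median of 8419 against 14974.5 UMIs in library 1 and 7949 against 15460 in library 2. In library 2 they held more RNA of other cells: the 8 macrophage markers summed to 1647 CPM against 442 in granzyme-rich cells, and the 4 fibroblast markers to 1494 against 16.8. In library 1 those sums were 74.5 against 120 and 16.9 against 2.13. Much of the fibroblast RNA of library 2 lay in 1 cell, which was among the cells with none. It held 275 of the 409 Col1a1, 223 of the 425 Col1a2 and 99 of the 165 Col3a1 UMIs of all members there. The part of depth and of foreign RNA in the split was not tested.

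**Figure D3:**
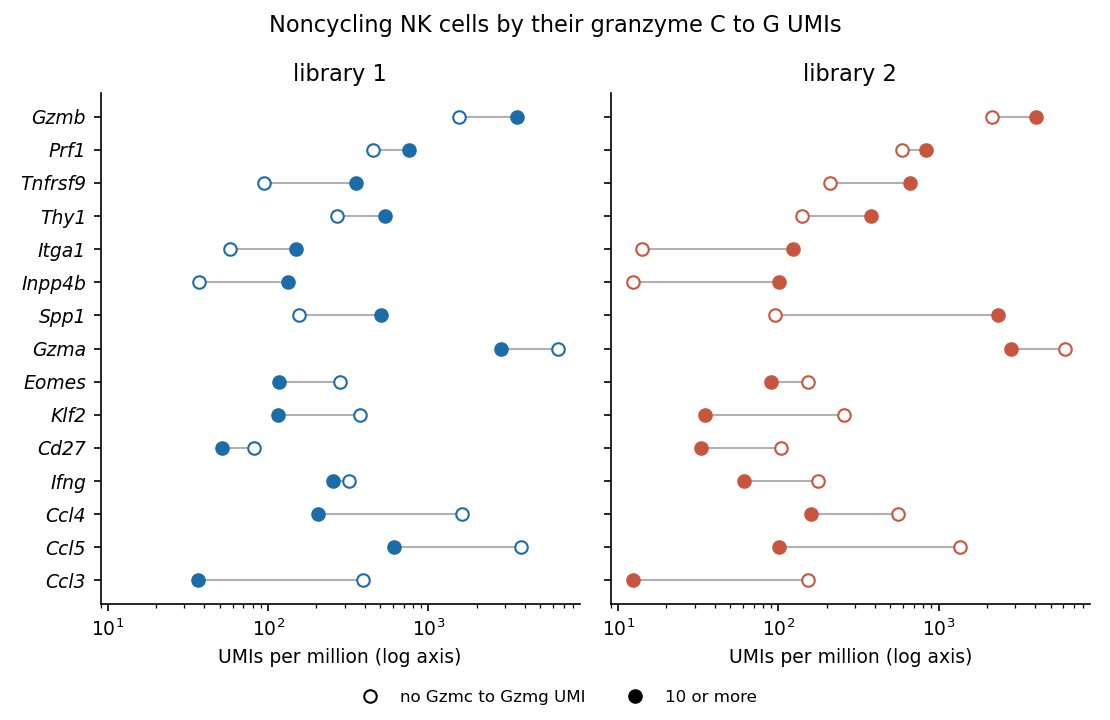
Levels of 15 genes (CPM, log axis) in noncycling NK cells with no Gzmc to Gzmg UMI after thinning (open points, 35 and 55 cells) and with 10 or more (filled points, 28 and 364 cells), in library 1 (left) and library 2 (right). The filled points lie to the right of the open ones from Gzmb to Spp1 and to the left from Gzma to Ccl3, in both libraries. Prf1 and Gzma are part of the rule that chose the cells. Itga1 and Inpp4b held fewer than 100 UMIs in the pools of library 1.

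The ratio of library 1 over library 2 was also taken within each kind of cell. Of 1086 genes compared in cells with none, 42 were called higher in library 1 and 53 in library 2. Of 5019 compared in the granzyme-rich cells, these counts were 95 and 28. The 53 took in Col1a1, Col1a2, Col3a1 and Dcn. Of each of these fibroblast genes, 1 cell held 42.7% to 67.2% of the UMIs of all members of library 2. Some genes kept their sign but not always their call, and others changed sign. In cells with none and in cells with 10 or more granzyme C to G UMIs, the log2 ratios were 1.46 and 2.61 for Ccl5, 5.24 and 2.73 for Hspa1b, 1.56 and 1.12 for Id2 and -3.60 and -2.61 for Mt1, called in both. Ifng had 0.86 and 2.06 and Klf2 0.53 and 1.72, called in the granzyme-rich cells alone. Ccl4 had 1.53 and 0.36, called in the cells with none alone. Spp1 (0.71 and -2.23) and Fos (-0.63 and 1.23) changed sign and were called in the granzyme-rich cells alone. Egr1 (-1.86 and 1.06) and Cxcl10 (-1.50 and 0.44) also changed sign and were called in the cells with none alone. Within the granzyme-rich cells, Gzmd, Gzme and Gzmf were called lower in library 1, with log2 ratios of -3.24, -2.87 and -2.29. Gzmc and Gzmg, with -0.59 and -0.95, were not called there. The sum of Gzmc to Gzmg set the split, so the ratios of these genes within it are a description only.

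Ly49 receptors, lectin-like molecules by which mouse NK cells read MHC class I, were present in a mosaic. Klra8 (Ly49H, an activating receptor that is part of the rule) stood at 335 and 215 CPM. Klra7 (Ly49G), an inhibitory receptor, stood at 532 CPM in library 1 and 306 in library 2 (log2 ratio 0.80, interval 0.66 to 0.93) and was seen in 49.4% and 39.8% of thinned members, 54.0% and 47.9% without thinning, against at most 0.554% of macrophages. Klra4 (Ly49D, activating) stood at 375 and 235 CPM, and Klra9 (Ly49I, inhibitory) at 189 and 261. Klra4 was seen in 32.2% and 38.1% of thinned members (36.8% and 44.8% without thinning) and Klra9 in 35.6% and 43.8% (43.7% and 57.4%). Neither had a UMI in the thinned macrophages of library 1, which allows up to 0.955%, and in library 2 they were seen in 1.54% and 0.862%. Counting Ly49 genes other than Klra8 per thinned cell, the median was 2 in both libraries, and 22.99% (14.6 to 33.2) of members in library 1 and 13.2% (10.3 to 16.5) in library 2 had none. Of 6 Ly49 genes compared, Klra5 was called higher in library 2, at 65.2 against 28.6 CPM (log2 ratio -1.19, interval -1.77 to -0.66), and none in library 1. In library 1, 1 cell held 46.7% of the Klra5 UMIs. Ly49 genes are near-identical copies, so reads may have been split between them.

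NKG2, NKR-P1 and SLAM family receptors gave no call between the libraries. Of 17 compared, none was called different in either direction, with a median log2 ratio of 0.47. Klrd1 (CD94, the partner of the NKG2 chains) stood at 1046 CPM in library 1 and 1252 in library 2, Klrk1 (NKG2D, which reads stress ligands on tumour cells) at 614 and 438, and Klrc1 (inhibitory NKG2A) at 224 and 133. The 11 compared genes of the NK identity list gave no call either, with a median of 0.44. Inhibitory checkpoints were low: over 10 genes they summed to 244 and 217 CPM, led by Cd96 (77.2 and 61.4), and none of 6 compared was called. Costimulatory receptors of the TNF receptor family gave 1 call of 6, Tnfrsf9, at 267 CPM in library 1 and 586 in library 2 (log2 ratio -1.14, interval -1.31 to -0.96).

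Of 18 lineage transcription factors compared, 6 were called higher in library 1 and none in library 2, with a median log2 ratio of 0.91 beside 0.08 over all genes. Klf2 stood at 272 CPM in library 1 and 68.7 in library 2 (log2 ratio 1.98, interval 1.77 to 2.20). Id2, the repressor of E proteins that innate lymphocytes need, stood at 959.6 and 394 CPM (log2 ratio 1.29, interval 1.18 to 1.39). Both were higher in library 1 by more than their intervals. Zeb2, which drives late NK maturation, stood at 56.2 and 25.5, Tcf7, a factor of early NK cells, at 54.3 and 20.1, and Tox and Ahr completed the 6. Eomes and Tbx21 were not called (log2 ratios 0.93 and 0.54), and Irf8, needed for NK maturation, was level at 1039 and 962 CPM.

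The stage of maturation was read from few molecules. In thinned members, Cd27 without Itgam was seen in 18.4% (10.9 to 28.1) in library 1 and 17.6% (14.4 to 21.3) in library 2. Itgam without Cd27 was seen in 6.90% (2.57 to 14.4) and 3.04% (1.71 to 4.97), and neither in 73.6% and 79.1%. Without thinning, Cd27 was seen in 43.7% and 38.9% of members and Itgam in 10.3% and 6.29%. Macrophages, which express Itgam, held it in 55.7% and 68.2% of thinned cells, and Cd27 in 1.27% and 0.615%. Of 6 compared genes of mature circulating NK cells, Klf2, Ly6c2 and Zeb2 were called higher in library 1 and none in library 2 (median log2 ratio 0.85), with Ly6c2 at 436 and 113 CPM. The immature list gave 2 of 8 higher in library 1, Ltb and Tcf7, and none in library 2, so both lists leaned to library 1. Of 11 compared residency and group 1 innate lymphoid genes, 1 was called, Ahr, higher in library 1, and the median was 0.09. Rgs1 and Cd69, which hold lymphocytes in tissue, stood at 1284 and 312 CPM in library 1 and at 1313 and 266 in library 2.

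Several chemokine and cytokine genes were higher in library 1. Of 11 compared, 5 were called higher there and none in library 2, with a median log2 ratio of 0.84. Ifng, the macrophage-activating cytokine of NK cells, stood at 295 (263 to 330.2) CPM in library 1 and 80.3 (73.9 to 87.0) in library 2 (log2 ratio 1.88, interval 1.68 to 2.08). It was seen in 43.7% and 17.2% of thinned members (63.2% and 34.5% without thinning), and in 0.431% of the macrophages of library 2 and none of library 1, which allows up to 0.955%. Ccl3 and Ccl4, which draw other leukocytes, stood at 171 and 705 CPM in library 1 and at 27.2 and 199 in library 2 (log2 ratios 2.65, interval 2.35 to 2.95, and 1.82, interval 1.69 to 1.95). Ccl5 stood at 1652 CPM in library 1 and 541 in library 2 (log2 ratio 1.61, interval 1.53 to 1.69). In library 2, 1 cell held 2254 of 3963 Ccl5 UMIs, 56.9%, and without the top cell of each library the log2 ratio was 2.71. Macrophages also make these chemokines: Ccl3, Ccl4 and Ccl5 stood at 190.4, 689 and 803 CPM in those of library 1 and at 266, 820.3 and 872 in those of library 2. Ltb (lymphotoxin beta) was the fifth, at 197 and 82.0 CPM. Xcl1, which draws cross-presenting dendritic cells, was high in both, at 2941 and 2381 CPM.

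Receptors for interleukin 18, which with interleukin 12 induces interferon gamma, were also higher in library 1. Il18rap stood at 120.1 CPM in library 1 and 29.2 in library 2 (log2 ratio 2.04, interval 1.71 to 2.36) and Il18r1 at 87.7 and 23.2 (log2 ratio 1.92, interval 1.54 to 2.29). Together with Il10ra (37.2 and 14.7 CPM) they were 3 of 12 compared cytokine receptors, with none higher in library 2 and a median of 0.51. Il2rb, the chain that carries interleukin 15 signals, stood at 1045 and 655 CPM and was not called. Of 17 JAK-STAT and survival genes, 3 were called higher in library 1 and none in library 2 (median 0.59), among them Socs3, a feedback inhibitor of cytokine signals, at 101 and 31.7 CPM, and the kinase Pim1 at 309 and 135. Of 11 trafficking genes, Cxcr4, the receptor of CXCL12, stood at 114 and 19.9 CPM (log2 ratio 2.52, interval 2.16 to 2.88) and Itga4 at 96.2 and 42.2. Both were called higher in library 1, and none in library 2. Among 17 receptor signalling genes, Syk was the call in library 1, at 32.4 and 9.83 CPM, and none was called in library 2.

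Of the genes ranked as higher in library 1, a pair of stress genes had the highest ratios. Hspa1b and Hspa1a, which encode the inducible chaperone HSP70, stood at 681 and 535 CPM in library 1 and at 61.4 and 60.5 in library 2 (log2 ratios 3.47, interval 3.30 to 3.64, and 3.14, interval 2.96 to 3.33). They are near-identical copies, so the split between them is uncertain. With Dnajb1 (214 and 76.4 CPM) and Hsph1 (112 and 23.5) they were 4 of 11 compared heat shock genes called, with none higher in library 2 and a median of 0.39. The constitutive chaperones Hspa8 and Hsp90ab1 were not called (log2 ratios 0.39 and -0.23). Heat shock and immediate early genes are known to respond to tissue dissociation, and the macrophages of library 1 held more Hspa1b as well, 204 against 71.2 CPM. The part of sample handling was not tested.

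Of 19 immediate early genes, Dusp1, Fosb, Nr4a1 and Zfp36 were called higher in library 1 and Ier3 higher in library 2, and the median log2 ratio was 0.81. Dusp1, a phosphatase that ends MAP kinase signals, stood at 536 CPM in library 1 and 173 in library 2 (log2 ratio 1.63, interval 1.48 to 1.77) and Fosb at 409.7 and 159. Ier3 stood at 10.5 and 67.6 CPM. The quiescence and naive lymphocyte list had 3 of 11 called higher in library 1 and none in library 2 (median 0.70): Klf2, Tcf7 and Btg1, an antiproliferative gene at 1385 and 579 CPM.

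A few interferon and MHC class I genes were higher in library 1. Of 18 type I interferon genes, Oasl2, Oas1a, Ifi44 and Rtp4 were called higher in library 1 and none in library 2, with all 18 above 0 and a median log2 ratio of 0.93. Ifi44 stood at 128 CPM in library 1 and 46.4 in library 2 (log2 ratio 1.46, interval 1.16 to 1.75). Of 14 interferon gamma genes, 2 were called higher in library 1 and none in library 2 (median 0.63), among them Gbp7, a guanylate-binding protein, at 172 and 78.8 CPM. Of 13 MHC class I genes, H2-Q7, H2-Q4 and H2-T23 were called higher in library 1 and none in library 2 (median 0.65). H2-Q7, a nonclassical class I gene, stood at 852 CPM in library 1 and 234 in library 2 (log2 ratio 1.86, interval 1.74 to 1.98). B2m, the light chain shared by class I molecules, stood at 3564 and 2272 CPM and was not called.

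Cisplatin crosslinks DNA and binds thiols. Lists that bear on it gave few calls, and the metallothioneins were higher in library 2. Of 10 p53 targets, Trp53inp1 (38.1 and 11.6 CPM) and Bbc3 (26.7 and 9.96) were called higher in library 1 and none in library 2 (median 0.35), while Cdkn1a (p21) at 89.6 and 61.4 was not called. None of 7 compared genes of DNA damage and crosslink repair was called (median 0.13). Mt1, which binds zinc and other metals, stood at 83.9 (67.3 to 103) CPM in library 1 and 737 (718 to 757) in library 2 (log2 ratio -3.14, interval -3.46 to -2.83). Mt2 stood at 7.62 and 124 CPM (log2 ratio -4.03, interval -5.24 to -3.04), with 75.0% of the UMIs of library 1 in 1 cell. With Hmox1 they were the 3 of 7 metallothionein and redox genes called higher in library 2, and none was called in library 1 (median -0.87). Macrophages held 393 and 563 CPM of Mt1 and 115 and 248 of Hmox1.

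The microRNA-21 knockout was in the tumour cells, and its reported targets were listed as a readout of the NK cells around them. Of 11 compared, Smad7 (which damps the response to TGF-beta, at 297 and 142 CPM) and Spry2 (an inhibitor of receptor kinase signals, at 187 and 74.8) were called higher in library 1 and Tpm1 higher in library 2. The median log2 ratio was 0.46. Pdcd4, a well-known reported target, stood at 259 CPM in library 1 and 189 in library 2 and was not called. The Tpm1 call rests on 1 cell that held 43.1% of its UMIs in library 2, and without the top cells the log2 ratio was -1.28 and no longer called.

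The TGF-beta readout list had 1 call in each direction among 10, Smad7 in library 1 and Gzmc in library 2 (median 0.15). Among 16 glycolysis and hypoxia genes, Vegfa was called higher in library 1, at 94.3 and 42.7 CPM, and none in library 2 (median -0.05). Gapdh stood at 1127 and 1787 CPM and Ldha at 393 and 626, neither called. Of 13 translation and growth genes, Myc was called higher in library 1, at 52.4 and 23.7 CPM, and none in library 2 (median -0.13). Of 14 S phase genes, the licensing factor Cdt1 was called higher in library 1 (35.3 and 15.4 CPM) and none in library 2 (median 0.21). None of 8 mitosis genes was called (median -0.36).

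Outside the lists, the largest ratios in library 1 also took in Cited4, a transcriptional coactivator, at 87.7 and 19.0 CPM, and Adgre5 (CD97), an adhesion receptor, at 88.6 and 22.0. In library 2, Spp1 stood at 1941 CPM against 392 (log2 ratio -2.31, interval -2.45 to -2.17), and Ifitm2, an interferon-induced membrane protein, at 1274 against 329.7 (log2 ratio -1.95, interval -2.11 to -1.80). Macrophages held 381 and 1262 CPM of Spp1 and 477 and 944 of Ifitm2. The level of both in the members of library 2 was thus above that of the macrophages of the same library.

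Genes higher in library 2 also included RNA of other cell types. Of 5 compared macrophage markers, 3 were called higher in library 2 (Lyz2, Apoe and Ms4a7) and none in library 1, and the 8 listed summed to 85.8 CPM in the members of library 1 and 529 in those of library 2, against 26778 and 36734 in macrophages. At least 1 of them was seen in 27.6% and 67.3% of thinned members. Lyz2 reached 0.385% of its macrophage level in the members of library 1 and 2.40% in library 2, and C1qa 0.119% and 0.689%. All 4 fibroblast markers were called higher in library 2, 10.5 against 158 CPM in sum, and 1 cell held 67.2% of the Col1a1, 52.5% of the Col1a2, 60.0% of the Col3a1 and 42.7% of the Dcn UMIs. The ranked genes Bgn, Mgp, Sparc and Ccl2 had 44.1%, 55.7%, 55.6% and 48.8% of their UMIs in 1 cell of library 2. The mast cell protease Mcpt2 had 489 UMIs in library 2, 488 of them in 1 cell, and 0 in library 1, at least 23.3-fold higher against a floor of 3 counts in that library. B cell markers ran the other way, 93.4 against 2.46 CPM over 6 genes, in 8.05% and 0.609% of thinned members, with 92.5 and 16.9 in macrophages. Dendritic markers summed to 0.953 and 10.2 CPM.

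When barcodes with more than 1 UMI of macrophage, fibroblast or C1q genes in 4000 were left out, 81 members of library 1 and 219 of library 2 remained. Among these, 150 of 4124 genes compared were higher in library 1 and 34 in library 2, against 187 and 91 of 5912 before. In the same cells the log2 ratios were -1.45 for Gzmc, -4.45 for Gzmd, -3.60 for Gzmf, -3.21 for Mt1, -2.60 for Spp1, 1.86 for Ifng, 3.03 for Ccl5 and 3.67 for Hspa1b, all still called, while among those no longer called were Col1a1 (0.22), Col3a1 (0.81) and Dcn (2.39), whose sign turned, Mgp (-1.13), Sparc (-1.19), Bgn (-1.84), Ccl2 (-2.19) and Ier3 (-1.10). Of the calls in library 1, several including Oasl2 (2.07), Trp53inp1 (1.81), Tox (1.55) and Il10ra (1.24) were also lost there, with fewer cells and UMIs to count. Leaving out the cell with the most UMIs of a gene in each library ended the calls of Syk (log2 ratio 1.60), Bbc3 (1.35), Cdt1 (1.12), Ahr (1.07), Myc (1.02), H2-T23 (0.98), Rtp4 (0.93) and Gbp7 (0.90), and those of Col3a1 (-2.24) and Dcn (-2.69). Hmox1 and Mcpt2 also lost their calls, with no UMI of either in library 1.

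**Figure D4:**
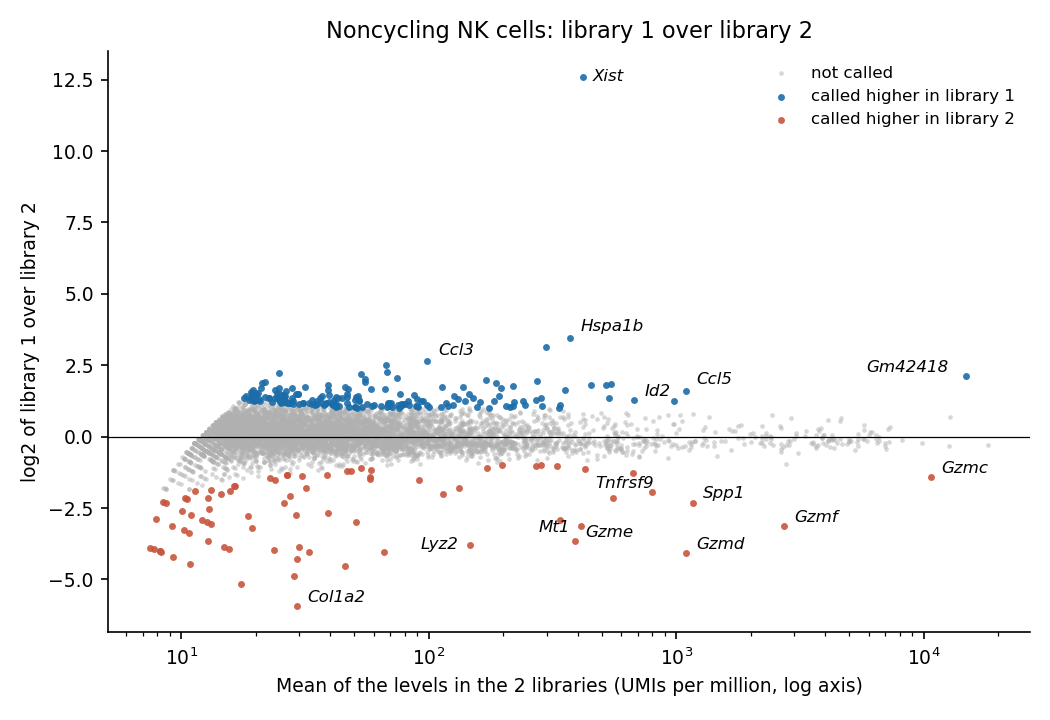
The log2 ratio of library 1 over library 2 (y axis) against the mean of both levels (x axis, CPM, log) for genes compared in noncycling NK cells that have a UMI in both libraries. Grey points were not called, blue were called higher in library 1 (Xist, Gm42418 and Hspa1b are labelled) and red higher in library 2, where granzymes C to F, Mt1 and Spp1 are abundant and Col1a2 is rare.

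The members were set against cycling NK cells of the same library (Mki67 and Top2a together at least 2 UMIs, 31 and 335 cells). Few genes besides those of the cycle were called the same way in both libraries, where the 31 cells of library 1 limit what can be called. The rule sets this contrast, so it is a description. Of 2268 genes compared, 63 (2.78%) were lower in members in both libraries and 3 (0.132%) were higher in both, with median log2 ratios of -0.06 and -0.02. Of 11 compared mitosis genes, 11 were lower in both, with medians of -3.20 and -3.01, and of 12 S phase genes 7 were, with medians of -1.39 and -1.11. Stmn1, which destabilises microtubules, stood at 102 CPM in members and 1008 in cycling cells of library 1, and at 181 and 1092 in library 2. The histone gene Hist1h2ap, transcribed in S phase, stood at 40.0 and 1376 in library 1 and at 15.8 and 651 in library 2. Of the repair genes only 1 could be compared, H2afx, and it was called lower in members, with log2 ratios of -2.48 and -2.77. Cycling cells were deeper, with medians of 25571 and 23263 UMIs. Without the top cell of each pool, the calls of Cenpf, Cenpe, Ccnb2 and Rrm2 in library 1 were lost, where few member UMIs of them remained.

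The 3 genes higher in members were Ccl5, Ccl4 and Ly6c2. Ccl5 stood at 1652 CPM in members and 117 in cycling cells of library 1 (log2 ratio 3.81), and at 541 and 147 in library 2 (1.88). Without the top cell of each pool its log2 ratios were 4.18 and 0.88, and the second was no longer called. Ccl4 stood at 705 against 91.7 CPM and at 199 against 73.5, with log2 ratios of 2.94 and 1.44. Ly6c2 stood at 436 against 74.9 and at 113 against 52.9, with log2 ratios of 2.54 and 1.09. None of 14 granule genes was called the same way in both libraries, and Gzmc gave log2 ratios of 0.05 and 0.52. In library 1 alone, Gzmd, Gzme and Gzmf were lower in members, with log2 ratios of -1.83, -2.12 and -1.05, against 0.37, 0.59 and 0.61 in library 2. None of 11 NK identity genes was called, with medians of 0.33 and 0.32, and none of 13 NKG2 and related receptors.

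The members were also set against CD8 T cells outside the cycle (482 and 428 cells), named effector by their rule. That CD8 rule asked for at least 2 CD3 UMIs, at least 1 of Cd8a, none of Ncr1 and at least 5 of Nkg7, Ccl5 and Gzmb together. Its mitochondrial, cycle and complement limits were those of the members. The rules of both pools select on CD3 genes and Ncr1 in opposite ways, so differences in T cell and NK markers are a description only. The CD8 pools of libraries 1 and 2 differed, with 176 and 2205 CPM of Gzmb, 663 and 2099 of Ccl5 and 1373 and 178 of Klf2. In this comparison 5530 genes were compared. In both libraries 70 (1.27%) were higher in the NK cells and 176 (3.18%) lower, and the median log2 ratios were 0.10 and -0.13. Of 10 NK identity genes outside either rule, 7 were higher in both and none lower (medians 3.19 and 1.49), Tyrobp among them at 2218 against 71.9 CPM in library 1 and 2719 against 629.7 in library 2. Of 15 NKG2, NKR-P1 and SLAM receptors, 8 were higher in both and none lower. Klri2, a partner of Klre1, had the highest ratio of them, at 155 against 1.45 and at 90.6 against 2.68, with log2 ratios of 6.75 and 5.08. Of 5 compared Ly49 genes, Klra3, Klra4 and Klra9 were higher in both, and none lower. With barcodes that carried RNA of other cells left out, Klra3 was no longer called in library 2 (0.58), nor was Cd244 in library 1 (3.66).

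Granzymes C, D and F were higher in NK cells than in CD8 T cells of both libraries. Of 14 granule genes compared outside the CD8 rule, 4 were higher in both and none lower. Gzmc stood at 5848 CPM in NK and 61.6 in CD8 T cells of library 1, and at 15462 and 838 in library 2 (log2 ratios 6.57 and 4.21). Gzmf gave log2 ratios of 9.76 and 5.38. Gzmd stood at 122 CPM against 0 in library 1, where 3 counts of the CD8 pool allow up to 0.483, and at 2068 against 6.39 in library 2. Gzmb, part of the CD8 rule, stood at 176 and 2205 CPM in the CD8 T cells. Nrgn (neurogranin, a calmodulin-binding protein) stood at 216 against 4.18 and at 279.5 against 16.3, and Spp1 at 392 against 6.11 and at 1941 against 121. Spry2 (log2 ratios 4.12 and 2.44), Xcl1 (3.63 and 1.12), Tgfb1 (1.71 and 1.06), Irf8 (4.39 and 2.70) and the chemokine receptor Ccr2 (3.61 and 1.27) were also higher in both. Of these, Xcl1 was no longer called in library 2 in the barcodes low in RNA of other cells (0.96).

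T cell markers and some quiescence genes were lower in NK cells than in CD8 T cells. Of 6 compared T cell markers, 5 were lower in both libraries (medians -7.12 and -6.95) and Trbc1 was not called, with log2 ratios of -0.86 and -0.43. The CD3 and Cd8a limits of the rules set this contrast, so it is a description. Of 13 quiescence and naive lymphocyte genes, 5 were lower in both and none higher (Klf2, Klf3, Il7r, Tob1 and Cdkn1b). Of these, Klf3, Il7r and Tob1 were no longer called in library 2 in the barcodes low in RNA of other cells. Klf2 stood at 272 against 1373 CPM and at 68.7 against 178. Lat, the adaptor downstream of the T cell receptor, stood at 24.8 against 249.7 and at 25.8 against 231. Ikzf2 (Helios), Smad7, Cd27, Cd28 and Icos were lower in both as well. In the barcodes low in RNA of other cells, Cd27 (-0.98, library 1) and Cd28 (-0.95, library 2) were no longer called. The CD8 pool of library 2 held more Tyrobp than that of library 1, 629.7 CPM against 71.9, and more Gzmc, 838 against 61.6. It also held more of the macrophage marker Lyz2, 1008 against 88.0. The source of this RNA and its part in the smaller ratios of library 2 were not tested.

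Of the 5530 genes, 15 (0.271%) were called above CD8 T cells in library 1 and below them in library 2. Of these, 10 are listed genes outside the CD8 rule. Ccl5, which is in that rule, was another, and Ifi211, S100a4, Ccrl2 and Xdh, named after their values were seen, are in no list. Ccl3 stood at 171 CPM in NK and 20.4 in CD8 T cells of library 1, and at 27.2 and 98.9 in library 2. Ifng stood at 295 and 52.0 in library 1, and at 80.3 and 220.3 in library 2. In both genes the CD8 T cells of library 2 held more than those of library 1, while the NK cells held less. Hspa1b stood at 681 and 247 CPM in library 1, and at 61.4 and 197 in library 2. With 1 library on each side, the difference between the libraries was not tested.

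**Figure D5:**
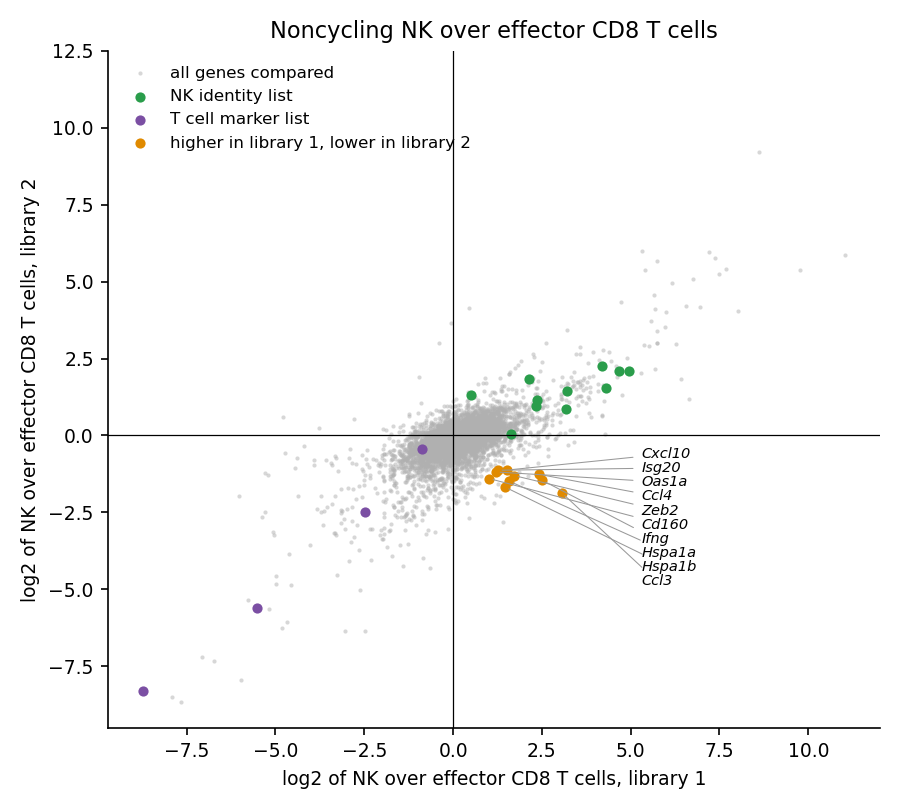
The log2 ratio of noncycling NK over effector CD8 T cells in library 1 (x axis) and library 2 (y axis) for genes with a ratio in both. Green points are the NK identity list, purple the T cell marker list (those with UMIs in both pools), and orange the 10 listed genes outside the CD8 rule called higher in NK cells of library 1 and lower in library 2.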

How the data were processed

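The deposited file was 1 matrix of UMI counts over 31053 genes and 12514 barcodes from droplet RNA-seq of 2 pooled-cell libraries, 1 in each of 2 groups. The authors made these counts with Cell Ranger 3.1.0 and mm10, per the submitters' processing notes. The annotation version, the rule for calling cells, any subsampling between libraries and the use of strand were not given in the sources used here. Antisense and overlapping genes are therefore uncertain. From the counts, cells were chosen by UMI limits, UMIs were summed over each pool and divided by the pool's total, exact Poisson intervals were given for levels, exact conditional binomial intervals for ratios and Clopper-Pearson intervals for shares, all at 95%. A call needed a 2-fold difference, an interval that excluded 1.5-fold and at least 100 UMIs in the pools compared. Shares of cells with a UMI were taken after thinning each cell to 4000 UMIs, which every cell held. Scrublet made 0 automatic calls in 5320 and 7194 barcodes, so it did not work here, and no doublets were removed. As an alternative the 266 and 360 barcodes with the highest scores were left out. The calling code was tested on simulated data. Genes named are members of the lists, the 10 highest and 10 lowest ratios of each comparison among called genes with at least 50 CPM, the 20 most abundant genes and the 15 with the highest variance over mean, leaving out ribosomal, mitochondrial, Gm42418, sex-linked and receptor variable genes from ranks. Xist, the Y-linked genes, Inpp4b, Thy1 and the split by granzymes C to G were chosen after their values were seen. So were the alternatives with barcodes low in RNA of other cells and without the top cell. The cells and the lists were chosen with earlier results of these data known. Work was done in Python 3.11.15 with numpy 2.4.6, scipy 1.17.1, pandas 2.3.3, scanpy 1.11.5 and matplotlib 3.10.9. Promoter stretches came from RefSeq on GRCm38.p6. Values of a few genes are not reported here.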

Additional observations from a re-analysis of the deposited data

Results flagged for a closer look

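Relative to effector CD8 T cells of the same library, 15 of 5530 genes compared were called higher in the NK cells of library 1 and lower in those of library 2, of which the 10 listed genes outside the CD8 rule are given here. The difference between the libraries was not tested, since each has no replicate. The CD8 pools of the libraries differed as well, so these ratios also carry differences between those pools. Among chemokines and cytokines, the log2 ratio of Ccl3 was 3.06 in library 1 and -1.86 in library 2, a difference of 4.93. That of Ifng was 2.51 and -1.46, a difference of 3.96, and that of Ccl4 was 2.43 and -1.27, a difference of 3.69. The interferon-induced chemokine Cxcl10 had 1.53 and -1.12, a difference of 2.65, with 32.9% and 37.2% of its UMIs in 1 cell of each library. The chaperones Hspa1b (1.46 and -1.68) and Hspa1a (1.59 and -1.49) differed by 3.14 and 3.08. Zeb2 had 1.72 and -1.30, a difference of 3.03. The receptor Cd160 had 1.02 and -1.40, a difference of 2.42, Oas1a 1.21 and -1.19, a difference of 2.40, and Isg20 1.26 and -1.13, a difference of 2.39. Without the cell with the most UMIs of a gene in each pool, Ifng was -0.74 in library 2, Cd160 0.97 in library 1 and Oas1a 1.10 in library 1, none of them called. In the barcodes low in RNA of other cells, where 112 CD8 T cells of library 2 remained, Zeb2 was -0.25 in library 2 and not called.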

How the results depend on the processing

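No paired analysis was possible because each group has 1 library. Of 72 called genes of the library comparison that are listed or ranked, 3 changed sign under an alternative: with barcodes holding RNA of other cells left out, the log2 ratios of Col1a1, Col3a1 and Dcn were 0.22, 0.81 and 2.39, and with at least 2 Ncr1 UMIs that of Dcn was 0.56, none of them called. Of the values that answer a comparison, 98 of the alternatives stayed close to the value reported and 32 moved. Thinning every cell to 4000 UMIs before the rule changed most: the members were 1.30% and 5.21% of barcodes, the noncycling share of NK cells was 94.4% and 79.9%, genes higher in library 1 and in library 2 numbered 80 and 27 of 2017 compared (5912 without thinning), those higher and lower than cycling NK cells 1 and 3, and those higher and lower than CD8 T cells 21 and 40. A minimum of 20 UMIs gave 297 and 145, 5 and 201, and 154 and 274 for the same pairs. With no minimum, 361 genes were higher in library 1, 5 and 218 higher and lower than cycling cells, and 184 higher than CD8 T cells. An interval that excludes 2-fold left 58 higher in library 1 and 99 lower than CD8 T cells. At least 2 Ncr1 UMIs gave 5.56% of barcodes in library 2, 49 genes higher in library 2 and 1 higher than cycling cells. No CD3 UMI gave 5.75%, and no Mki67 or Top2a UMI gave 5.00% in library 2 and noncycling shares of 61.9% and 42.9%. Leaving out barcodes with RNA of other cells gave 34 genes higher in library 2, 93 lower than CD8 T cells and a noncycling share of 55.6% in library 2. The causes of these moves were not tested, beyond the fewer UMIs that thinning and stricter limits leave. With 1 library a group, differences between mice, hosts and preparations cannot be told apart from the tumour type, and the 87 cells of library 1 limit what can be seen of rare genes.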

Other observations

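The most abundant genes of these cells were ranked by the lower of the 2 libraries. Tmsb4x (thymosin beta 4, which binds actin monomers) led at 16320.3 and 19992 CPM in libraries 1 and 2, followed by Actb at 11269 and 13969.7 and Malat1 at 15716 and 9865, and Gzmc was the sixth. The surface glycoprotein gene Cd52 stood at 5061 and 5724 CPM and AW112010, an interferon-responsive transcript, at 3566 and 3092. Cd74, the invariant chain of MHC class II, was among the genes most variable from cell to cell, with a variance over mean of 13.5 and 28.0, but 1 cell held 33.2% and 26.1% of its UMIs in each library, and macrophages held 13833 and 2921 CPM.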
